A study of Mus musculus with 6 samples.

Results

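The 30 genes described here were taken as genes of neurons of the cerebellar cortex other than granule cells: Purkinje cells, GABA-releasing interneurons and unipolar brush cells. Several are also made by other cells, as given below, so they are not markers of these neurons alone. They were chosen by gene symbol from general knowledge of these cell types, with earlier results of the same data known, and all 30 were found among the 52550 genes of the files. By role, 17 were counted with Purkinje cells, 10 with GABA interneurons and 3 with unipolar brush cells. Purkinje cells release GABA as well, so Gad1, Gad2 and Slc32a1, counted with the interneurons, do not separate the first 2 classes. Expression was measured by RNA-seq of total RNA from 6 mouse medulloblastomas, tumours of the cerebellum, 3 with wild-type Eed and 3 with mutant Eed. Polycomb repressive complex 2, which silences developmental genes through a histone mark, needs Eed as a core subunit. The sources used here do not give the Eed allele, any transgene or Cre line that drives the tumours, the strain or the ages. They also do not say that each tumour is from its own animal, and the p-values then cover only the spread between these 6 samples, which may be technical. The comparison asks how these genes differ with the Eed genotype.

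Purkinje cells are the large output neurons of the cerebellar cortex. They arise, as the GABA interneurons do, from progenitors of the ventricular zone that use the transcription factor Ptf1a. Granule cells, the lineage from which Sonic hedgehog medulloblastoma grows, and unipolar brush cells arise instead from the rhombic lip. In a Purkinje cell, glutamate acts on a metabotropic receptor that works through phospholipase C, IP3 and the IP3 receptor to release calcium, and calcium buffers such as calbindin shape that signal. Members made by Purkinje cells or interneurons in a whole tumour piece may therefore come from cells outside the tumour lineage. In such bulk samples, fewer cells of a type and less RNA per cell cannot be told apart.

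The 6 libraries held 26186236 to 26425111 estimated counts each. Eed RNA stood at 30.1 to 43.7 CPM (estimated counts scaled by edgeR's TMM factors to a common depth) in wild type and 30.6 to 36.7 CPM in the mutants, and without knowing the allele this is no check of the genotype. Markers of the granule progenitor lineage fitted the tissue label: Atoh1 was at 75.2 to 172 CPM and Barhl1 at 297 to 371 CPM over the 6 libraries. With a Benjamini-Hochberg adjusted p under 0.05 as the threshold, 0 of 19145 genes (0%) passed edgeR's quasi-likelihood test in either direction. Before adjustment 1779 genes had a p under 0.05 on the higher side and 1680 on the lower, DESeq2 called 524 higher and 405 lower of 17494, and limma-trend on log2(TPM + 1) called none. No member below is therefore said to have risen or fallen, and values are given for each.

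Promoter sequence from RefSeq on GRCm38.p6 was found for 22 of the 30 members and not for Calb1, Skor2, Ppp1r17, Car8, Foxp2, Calb2, Itpr1 and Ebf2. The 250 bases before the start are shown for 4 members picked from the patterns described below. They are a pair of Purkinje genes that followed wild-type replicate 2, the GABA enzyme gene with groups that did not overlap, and Ebf3. Every mutant lay above every wild-type library for Ebf3, as for Ebf2, which had no promoter sequence. Capitals mark matches on either strand to motifs of factors that are themselves members: AGGTCA, the half-site of Rora, and GCCNNNGGC, the AP-2 motif of the Tfap2 factors. Each motif was searched alone, and matches to both may overlap. The Pcp2 window lies at chr8:3625548-3625797 on the minus strand, that of Pcp4 at chr16:96467356-96467605 on the plus strand, that of Gad1 at chr2:70561879-70562128 on the plus strand and that of Ebf3 at chr7:137314446-137314695 on the minus strand.
Pcp2: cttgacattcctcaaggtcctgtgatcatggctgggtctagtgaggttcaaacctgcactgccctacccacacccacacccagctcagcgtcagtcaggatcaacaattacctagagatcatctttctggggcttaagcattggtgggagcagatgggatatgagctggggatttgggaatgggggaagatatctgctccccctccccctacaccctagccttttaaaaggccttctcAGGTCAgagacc
Pcp4: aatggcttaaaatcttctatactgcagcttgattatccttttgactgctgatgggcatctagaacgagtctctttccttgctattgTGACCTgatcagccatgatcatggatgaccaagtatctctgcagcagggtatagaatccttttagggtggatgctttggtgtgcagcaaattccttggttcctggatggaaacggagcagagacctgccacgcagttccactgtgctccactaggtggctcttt
Gad1: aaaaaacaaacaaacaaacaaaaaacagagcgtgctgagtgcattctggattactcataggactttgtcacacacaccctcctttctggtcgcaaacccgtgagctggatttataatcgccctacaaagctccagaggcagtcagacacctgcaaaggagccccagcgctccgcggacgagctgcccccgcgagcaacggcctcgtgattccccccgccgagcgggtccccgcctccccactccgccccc
Ebf3: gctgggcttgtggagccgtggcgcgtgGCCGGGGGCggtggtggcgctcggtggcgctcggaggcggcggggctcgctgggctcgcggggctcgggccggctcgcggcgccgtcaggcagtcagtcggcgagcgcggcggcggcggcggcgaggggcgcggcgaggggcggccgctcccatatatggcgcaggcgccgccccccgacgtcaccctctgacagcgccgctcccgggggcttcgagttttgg

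The Pcp2 and Pcp4 windows shown each held a Rora half-site, as did windows of Dner and Homer3. Pcp2 has further annotated windows, and the one at chr8:3625283-3625532 held none. In all, 4 member genes had such a window, and 6 of the 32 annotated windows of the 22 members held the half-site. Of all 32851 promoter windows of this length, 14% held that half-site. An AP-2 motif lay in 10 of the members' windows, those of 7 genes, against 13.7% of all windows. Some windows of a gene overlap and share a match, as for AP-2 in Kit and for the half-site in Pcp2. The window counts of members therefore repeat some sites. The windows shown differed in CpG content: 43 CpG dinucleotides in Ebf3 and 17 in Gad1, against 3 in Pcp4, 1 in Pcp2 and a median of 6 over all windows. Other Purkinje members spread over this range, with 26 in Slc1a6 and in Rora, and 42 and 3 in the windows of Plcb4. The CpG content of these 4 windows therefore does not stand for a class or a direction. These matches describe letters in the windows, and binding was not measured.

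Levels differed widely between the members. On the length-scaled TPM scale, averaged over the 6 libraries, the highest were Pcp4 at 198, Ebf3 at 157, Pvalb at 97.8, Pcp2 at 90.9 and Itpr1 at 85.3. A middle range held Dner at 67.3, Ebf1 at 63.1, Car8 at 55.4, Homer3 at 51.2, Gng13 at 49.1, Calb1 at 47.2, Plcb4 at 47.2, Calb2 at 33.9, Ebf2 at 28.6 and Gad1 at 25.4 TPM. Below these came Ppp1r17 at 20.0, Kit at 17.3, Foxp2 at 16.7, Rora at 14.3, Slc1a6 at 10.6, Eomes at 7.36, Slc32a1 at 4.51 and Gad2 at 3.94 TPM. The lowest were Tfap2b at 1.67, Sst at 1.15, Tfap2a at 1.05, Slc6a5 at 0.728, Skor2 at 0.516 and Lmx1a at 0.191 TPM. Ptf1a, the factor of the GABA progenitors, had 0 counts in all 6 libraries, where 3 counts would be 0.113 to 0.115 CPM. Neurog1, another gene of early cerebellar GABA progenitors, was also at 0 in all 6.

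Of the 30 members, 27 had enough counts to test: all 17 Purkinje genes, 8 of the 10 interneuron genes and 2 of the 3 brush cell genes. Sst, Ptf1a and Lmx1a did not pass the filter. None of the 27 passed edgeR, with adjusted p from 0.145 to 0.869. Of these, 22 had a log2 fold change (mutant minus wild type) below 0, where 51.4% of all genes did. At an unadjusted p under 0.05, 10 of the 27 were lower in the mutants, where 8.78% of all genes were, and 2 were higher, where 9.29% of all genes were, so only the lower share stood above the background. The 10 were Calb1, Car8, Itpr1, Ppp1r17, Gng13, Plcb4, Slc1a6, Dner, Gad1 and Kit, and the 2 were Ebf2 and Ebf3. DESeq2 called 5 of them lower (Calb1, Itpr1, Plcb4, Gad1 and Kit), where it called 2.32% of all genes lower, and Ebf2 and Ebf3 higher, where it called 3.00%. The groups of these 7 genes did not overlap, which held for 11.9% of all genes on the lower side and 13.1% on the higher side. Leaving out a library moved the count of 10: to 18 for wild-type replicate 1, to 5 for wild-type replicate 2 or mutant replicate 2, and to 6 for wild-type replicate 3 or mutant replicate 1. Leaving out mutant replicate 3 gave 9. DESeq2's 5 lower calls became 13 when wild-type replicate 1 was left out, 3 for wild-type replicate 2, 4 for wild-type replicate 3, 1 for mutant replicate 1 and 2 for either other mutant. Its 2 higher calls became 1 without wild-type replicate 1, mutant replicate 1 or mutant replicate 2, and 0 without mutant replicate 3.

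**Figure D1:**
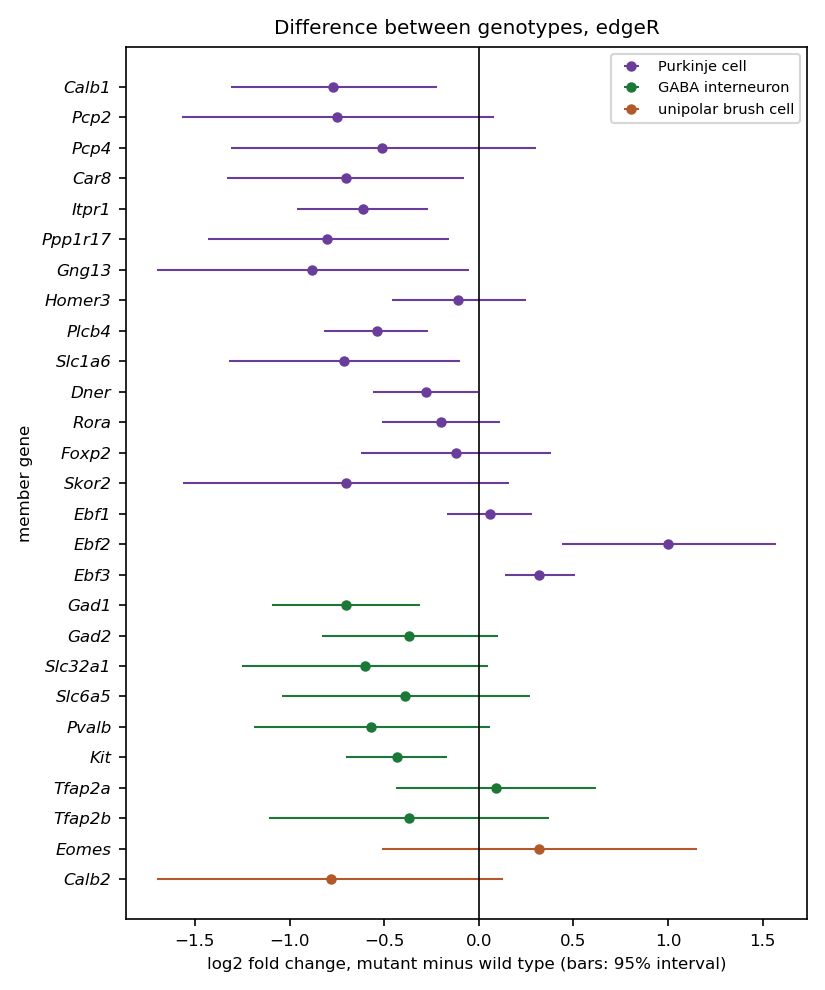
Log2 fold change (mutant minus wild type, edgeR) of the 27 tested members on the x axis, with 95% intervals as bars and colours for the 3 cell classes. The Purkinje signalling genes lie left of 0, from -0.88 to -0.11, while Ebf2 and Ebf3 lie right of it at 1.00 and 0.32.

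The 11 signalling genes of Purkinje cells all had negative log2 fold changes, with a median of -0.70 against -0.01 over all genes tested, and 8 had an unadjusted p under 0.05. Calb1 encodes calbindin, the calcium buffer by which Purkinje cells are usually recognised (chromosome 4, 15881264 to 15908064). In wild-type replicates 1 to 3 it stood at 86.5, 154 and 120 CPM, and in the mutants, in the same order, at 77.1, 53.8 and 80.9 CPM. All 3 mutants lay below all 3 wild-type libraries, and the gap was narrow, since wild-type replicate 1 was close to mutant replicate 3. Means were 120 ± 33.5 and 70.6 ± 14.7 CPM (SD, n = 3), a log2 fold change of -0.77 (SE 0.231, edgeR adjusted p = 0.182), and -0.55 without wild-type replicate 2.

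In the IP3 and calcium release pathway, the groups were apart for 2 of 4 genes. Itpr1, the IP3 receptor that releases calcium from the endoplasmic reticulum (chromosome 6, 108213096 to 108551109), was at 343, 459 and 395 CPM in wild type and 288, 215 and 280 CPM in the mutants. Its groups did not overlap, and the log2 fold change was -0.61 (SE 0.146, edgeR adjusted p = 0.151). Plcb4 encodes the phospholipase that makes IP3 (chromosome 2, 135659011 to 136014593) and was at 85.5, 111 and 86.3 CPM in wild type against 60.2, 65.2 and 69.2 CPM. These groups too were apart, with a log2 fold change of -0.54 (SE 0.117, edgeR adjusted p = 0.145). Car8, a protein related to carbonic anhydrases that binds the IP3 receptor, was at 99.7, 187 and 135 CPM in wild type and 91.9, 61.5 and 106 CPM in the mutants. Wild-type replicate 1 fell within the mutant range for Car8, whose log2 fold change of -0.70 became -0.45 without wild-type replicate 2. Homer3, a scaffold that ties the glutamate receptor to the IP3 receptor, was at 45.7, 68.7 and 56.5 CPM against 56.4, 46.9 and 55.5 CPM. Its log2 fold change of -0.11 (95% interval -0.46 to 0.25) turned to 0.05 without wild-type replicate 2.

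The remaining signalling genes were highest in wild-type replicate 2, with wild-type replicate 1 at or below the highest mutant. Pcp2, a modulator of G protein signalling, was at 13.8, 39.4 and 22.3 CPM in wild type and 14.6, 13.2 and 17.3 CPM in the mutants, with a log2 fold change of -0.75 that was -0.27 without wild-type replicate 2. Pcp4, a small calmodulin-binding protein, was at 33.5, 91.8 and 61.3 CPM against 39.9, 36.6 and 54.6 CPM, and wild-type replicate 1 was the lowest of all 6. Ppp1r17, a phosphatase inhibitor phosphorylated in Purkinje cells, was at 14.4, 30.4 and 23.3 CPM in wild type and 14.0, 10.5 and 14.7 CPM in the mutants. Here again 1 wild-type library overlapped the mutants. Gng13, a G protein gamma subunit, was at 5.84, 15.4 and 10.5 CPM against 6.02, 4.41 and 6.87 CPM, with a log2 fold change of -0.88 that was -0.50 without wild-type replicate 2. Slc1a6, the glutamate transporter of Purkinje cell spines, was at 10.7, 20.6 and 16.6 CPM in wild type and 10.5, 7.56 and 11.2 CPM in the mutants. Dner, a Notch ligand-like protein on Purkinje dendrites, was the flattest of these at 129, 180 and 166 CPM against 126, 130 and 135 CPM. Pcp2, Gng13 and Homer3 share exon sequence on the opposite strand with Pet100, Chtf18 and Ddx49, which reached 12, 31.5 and 38.9 CPM, and without strand their reads cannot be told apart.

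**Figure D2:**
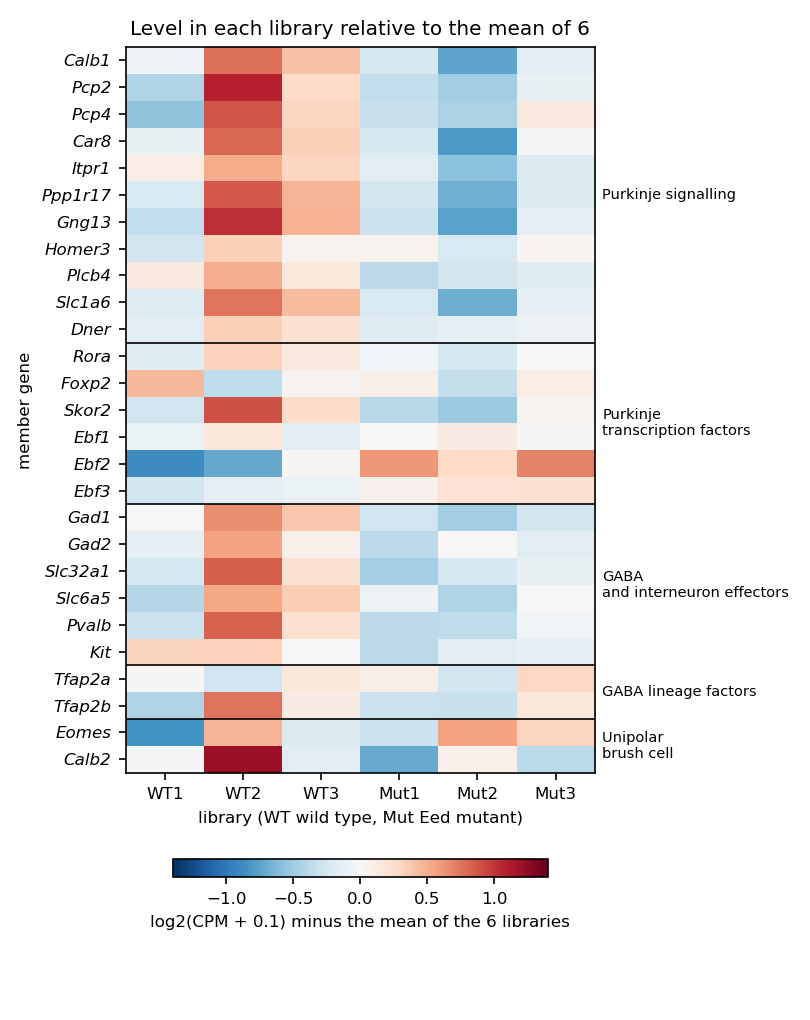
Level of each tested member in each library as log2(CPM + 0.1) minus the mean of the 6 libraries, on a colour scale from blue (below) to red (above), with members in rows and libraries in columns. Wild-type replicate 2 (WT2) is the highest library for 22 of the 27 members, while Ebf2, Ebf3 and Foxp2 show other patterns.

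Transcription factors of the Purkinje lineage gave no common direction. Their median log2 fold change was -0.03 over 6 genes, with 3 below 0 and 3 above, and the difference from the signalling genes was not tested. Rora, the nuclear receptor that Purkinje cells need to mature, was at 55.8, 78.3 and 68.7 CPM in wild type and 61.2, 52.9 and 62.6 CPM in the mutants. Its log2 fold change of -0.20 was 0.05 on the log2(TPM + 1) scale, so no direction is given for it. Foxp2, a forkhead factor of Purkinje cells, ran against the others within wild type: it was highest in wild-type replicate 1 and lowest in wild-type replicate 2, at 55.7, 31.6 and 41.7 CPM, beside 42.9, 32.2 and 43.6 CPM in the mutants. Its log2 fold change was -0.12 (95% interval -0.62 to 0.38), and it turned to 0.11 when wild-type replicate 1 was left out, to 0.01 when mutant replicate 2 was, and to 0.17 with the file code in the fit. Skor2, a corepressor needed for Purkinje cell differentiation, was rare at 0.829, 2.00 and 1.25 CPM against 0.767, 0.691 and 1.06 CPM, with wild-type replicate 2 again at the top. Its log2 fold change of -0.70 (SE 0.365, edgeR adjusted p = 0.355) equalled the median of the signalling genes.

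The early B-cell factors (Ebf) are helix-loop-helix transcription factors of early neurons, Purkinje cells among them, and of other tissues. Ebf2 (chromosome 14, 67233292 to 67430918) was at 40.8, 45.6 and 76.0 CPM in wild type and 114, 90.6 and 121 CPM in the mutants. Every mutant lay above every wild-type library, with means of 54.2 ± 19.1 and 108 ± 16.0 CPM (SD, n = 3). The log2 fold change was 1.00 (SE 0.239, edgeR adjusted p = 0.151), from 0.83 to 1.33 with 1 library left out, and the DESeq2 adjusted p was 0.00143, with 0.00143 to 0.477 over the alternatives. Ebf3 (chromosome 7, 137193673 to 137314445) was at 361, 394 and 407 CPM against 451, 499 and 503 CPM. Here too the 3 mutants lay above the 3 wild-type libraries, by a smaller log2 fold change of 0.32 (SE 0.0786, edgeR adjusted p = 0.152). Ebf1 was at 182, 217 and 174 CPM in wild type and 195, 210 and 190 CPM in the mutants, with a log2 fold change of 0.06 (95% interval -0.17 to 0.28) that fell below 0 without wild-type replicate 3 (-0.01) and with the file code in the fit (-0.0021). An opposite-strand gene, Gm45278, shares exon sequence with Ebf3 and reached 10.5 CPM, and Gm10860 shares some with Ebf2 and reached 0.997 CPM. Ebf1 is also made by B cells and pericytes. The 4 B cell markers summed to 0.945 to 1.02 CPM in wild type and 0.576 to 1.09 CPM in the mutants. The 5 pericyte markers summed to 190 to 224 CPM in wild type and 235 to 268 CPM in the mutants. Their median log2 fold change was 0.17, with 3 above 0 and 2 below. Rgs5 made up much of the sums, at 108, 128 and 137 CPM against 173, 158 and 180 CPM. Kcnj8 went the other way and was lower in every mutant (log2 fold change -0.47). The part of these cells, or of the tumour cells themselves, in the Ebf values was not tested.

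**Figure D3:**
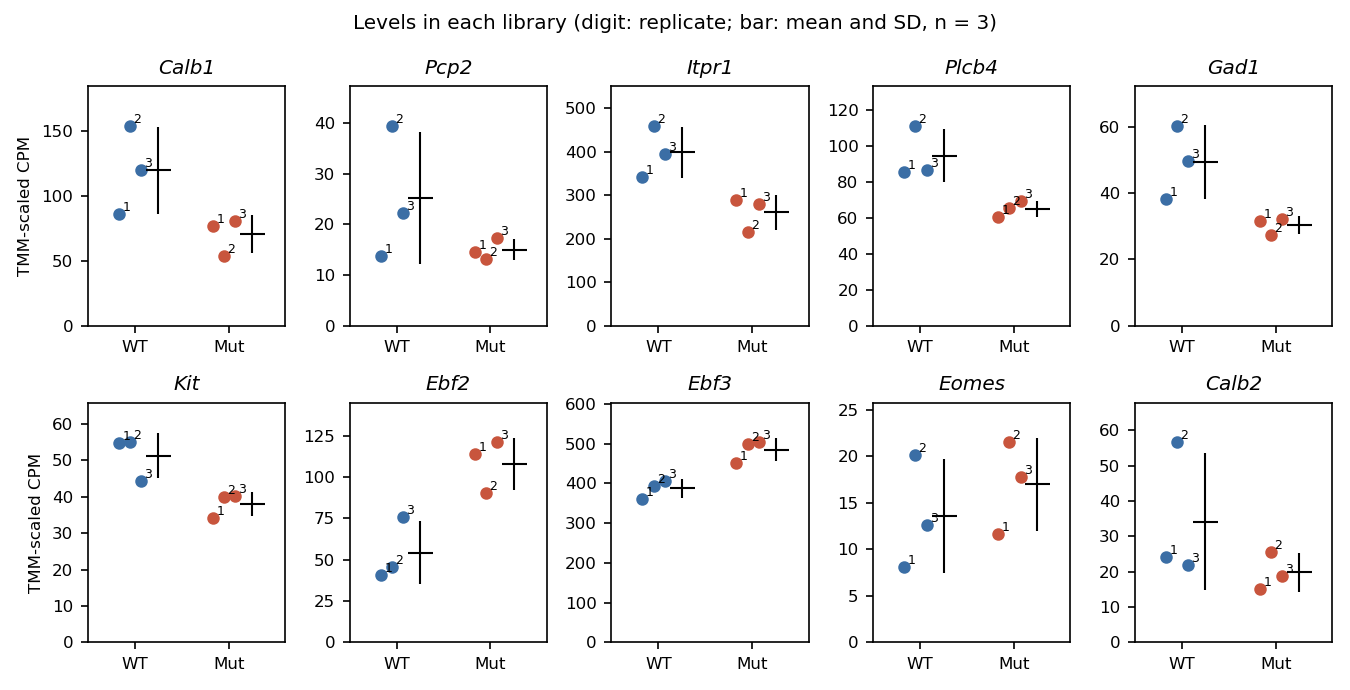
TMM-scaled CPM (y axis, from 0) of 10 members in each library, with the replicate number beside each point and the mean and SD (n = 3) as bars. The 3 mutant points of Calb1, Itpr1, Plcb4, Gad1 and Kit lie below all wild-type points, those of Ebf2 and Ebf3 above them, and those of Pcp2, Eomes and Calb2 overlap.

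Over the 8 tested interneuron genes the log2 fold change had its median at -0.41, and 7 lay below 0 and 1 above. Because Purkinje cells also release GABA, this median does not stand for interneurons alone. Genes for GABA and glycine signalling lay on the lower side, most clearly Gad1, which encodes the main GABA-making enzyme of cell bodies (chromosome 2, 70553072 to 70602014). It was at 38.1, 60.2 and 49.8 CPM in wild type and 31.7, 27.3 and 32.2 CPM in the mutants. The groups were apart, at 49.3 ± 11.1 and 30.4 ± 2.71 CPM (SD, n = 3), a log2 fold change of -0.70 (SE 0.165, edgeR adjusted p = 0.151). This gene total is not a measure of coding RNA alone. Pooled over libraries, 68.6% of it was assigned to Gad1-206, listed as a processed transcript, and 28.3% to the coding Gad1-201. For Gad1-201, wild-type replicates 1 to 3 held 363, 338 and 386 estimated counts. Mutant replicates 1 to 3 held 287, 199 and 209. Either transcript was lower in every mutant than in every wild-type library. Gad2, the second enzyme, found at nerve endings, was at 11.3, 18.2 and 12.9 CPM against 9.55, 12.3 and 11.1 CPM, and the groups overlapped. Slc32a1, which loads GABA and glycine into vesicles, was at 6.71, 14.3 and 9.30 CPM in wild type and 5.71, 6.79 and 7.44 CPM in the mutants. For the glycine transporter Slc6a5, a marker of Golgi cells, the values were 2.19, 4.27 and 3.76 CPM against 2.76, 2.15 and 2.91 CPM. All 3 of these genes peaked in wild-type replicate 2, and their groups overlapped.

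Pvalb encodes parvalbumin, a calcium buffer of Purkinje cells and molecular layer interneurons, and also of fast muscle fibres. It was at 38.7, 84.8 and 55.5 CPM in wild type and 37.0, 37.3 and 46.4 CPM in the mutants, with wild-type replicate 1 inside the mutant range. The 5 skeletal muscle markers summed to 3.84 to 18.1 CPM in wild type and 50.2 to 269 CPM in the mutants, opposite in direction to Pvalb, and their part in the Pvalb values was not tested. Kit, the receptor tyrosine kinase of molecular layer interneurons (chromosome 5, 75574916 to 75656722), did not peak in wild-type replicate 2 alone: wild-type replicates 1 and 2 stood level at 54.8 and 54.9 CPM. Wild-type replicate 3 was at 44.3 CPM and the mutants at 34.1, 39.8 and 40.1 CPM, so the groups did not overlap. The log2 fold change was -0.43 (SE 0.111, edgeR adjusted p = 0.155), and -0.36 to -0.53 with 1 library left out. Kit also marks mast cells and melanocytes, whose 6 markers summed to at most 1.29 CPM in any library, with Fcer1a at 0 in all 6. Sst, the peptide of some Golgi cells, was too rare to test, with 3, 5 and 2 counts in wild type against 8, 19 and 13 in the mutants, which did not overlap. Tfap2a and Tfap2b are AP-2 factors of the GABA lineage. Tfap2a was at 1.92, 1.55 and 2.13 CPM against 2.03, 1.57 and 2.34 CPM, with a log2 fold change of 0.09 that was -0.03 without wild-type replicate 2 and -0.05 without mutant replicate 3. For Tfap2b the values were 3.69, 8.47 and 5.39 CPM in wild type and 4.03, 3.99 and 5.55 CPM in the mutants, with wild-type replicate 2 alone standing out.

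Among 10 tested members with at least 2 transcripts that each held 10% or more of the gene's counts, Kit was the 1 in which the transcript shares of the groups did not overlap. Over all 8190 such genes the share was 21.9%, so 1 of 10 is no more than the background. Kit-201 and Kit-204 differ by 39 further bases at the start of the first exon of Kit-204 and by a splice choice at the end of exon 9, which encodes a stretch just outside the cell membrane. Kit-201 keeps 12 more bases there, at chr5:75639147-75639158 on the plus strand of GRCm38. The junction is shown with 30 bases on each side, from the GENCODE M21 transcripts, and capitals mark the 12 bases that only Kit-201 holds.
Kit-201: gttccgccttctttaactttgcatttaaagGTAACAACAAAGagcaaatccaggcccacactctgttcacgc
Kit-204: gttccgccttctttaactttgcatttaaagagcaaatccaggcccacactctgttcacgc

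Kit-201 took 69.0%, 52.8% and 63.4% of Kit counts in wild type, in replicate order, against 24.5%, 45.7% and 41.5% in the mutants. Means were 61.7% ± 8.24 and 37.2% ± 11.2 (SD, n = 3). In estimated counts Kit-201 had 1003, 767 and 740 in wild type against 218, 474 and 440 in the mutants, while Kit-204 had 412, 562 and 341 against 545, 403 and 487. The counts of Kit-201 did not overlap between the groups, and those of Kit-204 did. Such shares rest on few distinguishing bases: for Slc6a5, Slc6a5-201 took 100% of the counts in wild-type replicates 1 and 3 and in mutant replicate 3, and 0% in wild-type replicate 2 and mutant replicate 2.

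The brush cell genes gave no common direction. Eomes, a T-box factor of unipolar brush cells and their precursors, was at 8.07, 20.2 and 12.6 CPM in wild type and 11.7, 21.5 and 17.8 CPM in the mutants. Its groups overlapped, with a log2 fold change of 0.32 (95% interval -0.51 to 1.15), and 0.72 without wild-type replicate 2. The 3 markers of T and NK cells, which also make Eomes, summed to 0.0384 to 0.266 CPM over the 6 libraries. Calb2 encodes calretinin, a calcium buffer of a subset of brush cells that granule neurons also contain. It was at 24.1, 56.6 and 21.9 CPM in wild type and 15.0, 25.7 and 18.9 CPM in the mutants, and only wild-type replicate 2 stood clear. The log2 fold change of -0.78 became -0.21 without that library. Lmx1a, a factor of the rhombic lip and brush cells, had 7.12, 9 and 17 counts in wild type against 10, 5.80 and 8 in the mutants, too few to test. The median over Eomes and Calb2 was -0.23, and 0.25 without wild-type replicate 2, so it shows no direction. Differences between the medians of the 3 classes were not tested.

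Ratios within a library show which members kept step with calbindin. Calb1 itself spanned 2.86-fold from its lowest to its highest library. The ratio of Slc1a6 to Calb1 spanned only 1.14-fold, that of Car8 1.16-fold and that of Ppp1r17 1.19-fold, although their own levels spanned 2.73-, 3.04- and 2.89-fold. Gad1, Itpr1 and Skor2 followed with ratios spanning 1.30-, 1.34- and 1.36-fold. The levels of these genes thus kept close to that of Calb1 over the 6 libraries, wild type and mutant alike, and in all 15 of the other 26 tested members varied less as a ratio than as a level. Ebf2 lay at the other end, with a ratio to Calb1 of 0.471, 0.297 and 0.631 in wild type against 1.47, 1.68 and 1.5 in the mutants. Eomes (4.29-fold), Ebf3 (3.62-fold), Foxp2 (3.13-fold), Tfap2a (2.90-fold) and Ebf1 (2.76-fold) also spread more as a ratio. So did Gad2 (2.13-fold), Kit (2.07-fold), Dner (2.06-fold), Homer3 (1.95-fold) and Rora (1.93-fold). The Purkinje signalling genes Dner and Homer3 thus did not keep step with Calb1. All ratios share Calb1 and the library, and Calb1 was taken as the reference after the values were seen.

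**Figure D4:**
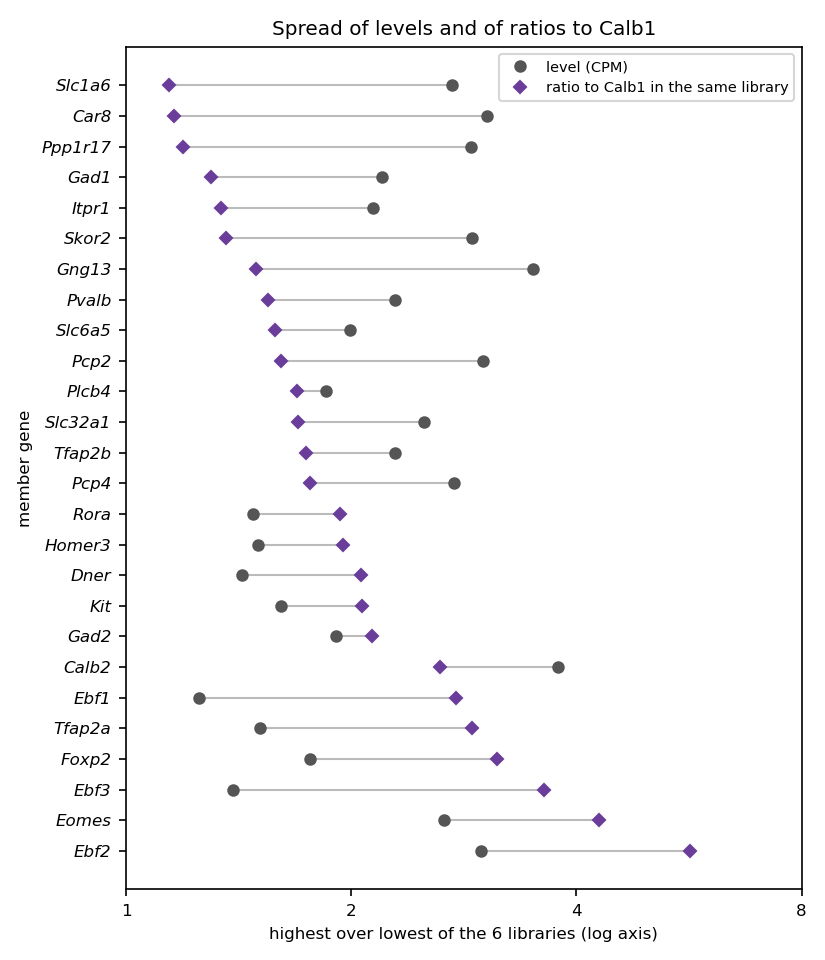
Highest over lowest value of the 6 libraries on a log axis, for the level of each tested member (grey circles) and for its ratio to Calb1 in the same library (purple diamonds), sorted by the ratio. Slc1a6, Car8 and Ppp1r17 span under 1.2-fold as ratios, and Ebf2 spans 5.67-fold.

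A few libraries set much of this pattern. Wild-type replicate 2 was the highest library for 22 of the 27 tested members, where it was highest for 26.6% of all genes, and wild-type replicate 1 lay near the mutants for most Purkinje signalling genes. Without wild-type replicate 2 the median log2 fold change of the Purkinje members went from -0.54 to -0.30 and that of the interneuron members from -0.41 to -0.21. Without wild-type replicate 1 they were -0.71 and -0.62. The file names carry a code of unstated meaning, shared by wild-type replicate 2 with mutant replicates 1 and 2 and by wild-type replicate 3 with mutant replicate 3, while wild-type replicate 1 has its own. Within both shared codes, every mutant was below its wild-type library for 20 of the 27 members, which held for 25.7% of all genes. Every mutant was above it for 4, where 25.2% of all genes were. Mutant replicates 1 and 2 are both set against wild-type replicate 2, so for members highest there those comparisons were settled in advance. Wild-type replicate 1 does not enter, and the count of 20 is no separate result. The 20 took in all 11 Purkinje signalling genes and all 6 tested genes for transmission and interneuron markers. For Calb1 the log2 ratios were -0.99 and -1.51 for mutant replicates 1 and 2 over wild-type replicate 2, and -0.57 for mutant replicate 3 over wild-type replicate 3. With 1 wild-type library per code these values have no test within a code. With the code as a term in edgeR the log2 fold changes were -0.95 for Calb1, -0.86 for Gad1 and 0.95 for Ebf2. Their edgeR adjusted p were 0.226, 0.191 and 0.209, and 0 genes passed in either direction. Wild-type replicate 1, alone in its code, does not enter that contrast. Leaving it out instead gave -0.96 for Calb1, -0.85 for Gad1 and 0.83 for Ebf2.

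Markers of other cells of the cerebellum differed between the genotypes in both directions. All 8 oligodendrocyte markers were lower in every mutant than in every wild-type library, with a median log2 fold change of -1.48, and they summed to 540, 1514 and 873 CPM in wild type and 342, 395 and 421 CPM in the mutants. The 5 markers of mature granule neurons had a median of -0.97 and summed to 366, 581 and 376 CPM against 289, 385 and 331 CPM. Astrocyte and Bergmann glia markers, 6 genes, summed to 1245 to 1837 CPM in wild type and 1045 to 1513 CPM in the mutants (median -0.27). Lists on the higher side were the muscle markers given above and the 4 endothelial markers. The endothelial markers all had positive log2 fold changes (median 0.29), with summed levels of 75.5 to 98.9 CPM against 103 to 110 CPM. Pericyte markers, given above, went in both directions. The 5 microglia markers were all below 0 (median -0.30). So were the 4 choroid plexus markers (median -0.31), but their groups overlapped for every gene. They summed to 186, 131 and 62.8 CPM in wild type and 110, 28.8 and 212 CPM in the mutants. No marker of these lists was at 0. The 7 markers of granule progenitors and the Sonic hedgehog tumour summed to 3885 to 3989 CPM in wild type and 3925 to 4174 CPM in the mutants. Within this sum 4 had log2 fold changes below 0 and 3 above (median -0.09). Atoh1 (0.59) and Gli1 (0.35) were higher in every mutant than in every wild-type library, and none was lower in that way. Atoh1, Barhl1, Gli1, Ptch1 and Mycn were lowest in wild-type replicate 2, while Zic1 and Neurod1 were highest there. Wild-type replicate 2 was again highest for all 8 oligodendrocyte and all 5 mature granule markers. The part of any of these cells in the values of the members was not tested.

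**Figure D5:**
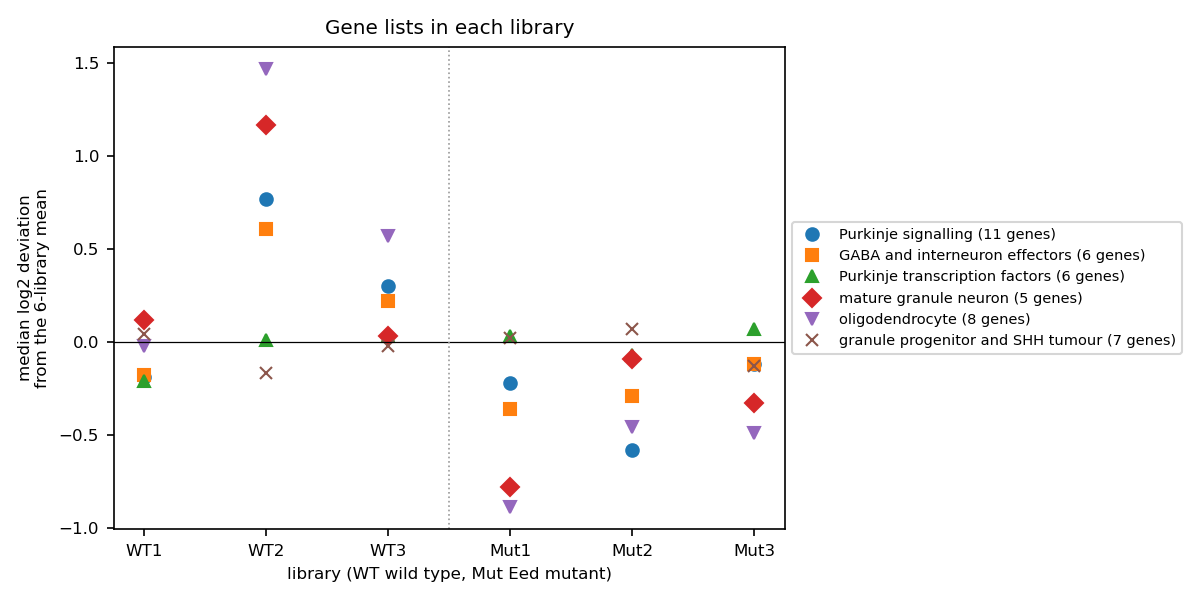
Median log2 deviation from the mean of the 6 libraries (y axis) for 6 gene lists in each library (x axis; WT wild type, Mut Eed mutant). Oligodendrocyte, mature granule, Purkinje signalling and interneuron lists all peak in WT2, at 1.47, 1.17, 0.77 and 0.61, while the Purkinje transcription factors stay between -0.21 and 0.07.

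Other genes of the same pathways came from lists drawn up by function, with earlier results of these data known. At an unadjusted p under 0.05, 8.78% of all genes were lower and 9.29% higher. Of 22 further genes of the glutamate receptor and calcium pathway, 6 were lower and 3 higher by that measure, with a median log2 fold change of -0.31. Lower ones included Rgs8, a G protein regulator of Purkinje cells, at 68.4, 124 and 88.8 CPM against 56.1, 50.6 and 52.1 CPM, and the calcium pump Atp2b2, at 190, 251 and 193 CPM against 110, 148 and 137 CPM. The groups did not overlap for either gene. The 3 higher ones, named after their values were seen, were the calcium release channel Ryr1, which skeletal muscle also makes, the phospholipase Plcb3 and the scaffold Homer1. Ryr1 was at 10.9, 13.0 and 14.9 CPM against 21.2, 16.7 and 37.1 CPM, with groups apart and the highest level in mutant replicate 3, where the muscle markers also peaked. The part of muscle in this value was not tested. For Plcb3 and Homer1 the log2 fold changes were 0.46 and 0.20. Of 8 tested genes of the inhibitory synapse, 2 were lower and none higher by that measure, namely the glycine receptor subunit Glrb (log2 fold change -0.43) and Abat, which breaks down GABA (-0.48). Of 9 tested genes that specify cerebellar GABA neurons, 1 was lower, a share near that of all genes, namely Lhx1, at 205, 189 and 170 CPM against 113, 158 and 119 CPM. Of 7 tested genes of the rhombic lip and the glutamatergic nuclei, Lhx2 was lower (-0.87) and Meis2 higher (2.07), and the list's median was -0.04.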

How the data were processed

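The members, gene lists and tests were chosen with earlier results of these data known. Total RNA was extracted with TRIzol and cleaned on columns before Illumina library preparation, per the labels' protocols. The deposited files hold estimated counts and TPM per transcript for 131100 GENCODE transcripts, per the file headers, made by the authors with kallisto 0.43.1 on GRCm38 (mm10), per the submitters' processing notes. The strand and the GENCODE release of the index are not given in the sources used here. Estimated counts and TPM were summed per gene, counts were rounded, and coordinates came from GENCODE M21 (GRCm38), which matched 52403 genes by identifier and left 147 unmatched. Groups were compared with edgeR 4.0.16 (TMM factors, default filter, quasi-likelihood F-test, Benjamini-Hochberg over 19145 genes) in R 4.3.3. DESeq2 1.42.0, limma 3.58.1, other scalings and filters, the replicate number, the file code and leaving out each library were alternatives. The fits were tested on simulated counts with known changes, where in 1 simulated data set DESeq2 made a larger share of false calls than edgeR and than its threshold states. All 30 members are accounted for. Each with a mean of at least 1 CPM in a group or with groups that do not overlap is given in every library. Up to 3 genes with the lowest p were named per pathway list, and 1 such gene is not reported here. Estimated counts split reads between similar transcripts, so transcript shares are less certain than gene totals. The floor of 3 counts covers counting error only.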

Additional observations from a re-analysis of the deposited data

How the results depend on the processing

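No member passed edgeR under any alternative except Ebf2 with the replicate block (log2 fold change 1.04, adjusted p = 0.0437), and DESeq2 called 7. Genes called higher and lower numbered 0 and 0 in edgeR, 524 and 405 in DESeq2, 189 and 84 with the replicate block, and 3 and 0 without a filter on low counts. They ranged from 0 to 6 and from 0 to 3 with 1 library left out. The replicate numbers gave no clear sign of pairing: deviations of same-numbered libraries correlated at 0.23, 0.06 and -0.13. Not every library correlated best with its own number, but the 0.23 of replicates 1 was the highest of all. With 3 libraries per group this check cannot exclude a pairing. Members lower at an unadjusted p under 0.05 numbered 10. They became 19 when the file code was a term, a fit whose contrast wild-type replicate 1 does not enter. With 1 library left out they ranged from 5 to 18, the 18 being without wild-type replicate 1. DESeq2's member calls, with that choice made after seeing the data, ranged from 1 to 13 lower and 0 to 2 higher. The Purkinje median of -0.54 ranged from -0.71 to -0.30 with 1 library left out. Signs reversed for Homer3 (0.05 without wild-type replicate 2, range -0.24 to 0.05 over left-out libraries) and Rora (0.05 on log2(TPM + 1)). They also reversed for Foxp2 (0.17 with the file code, and 0.11 or 0.01 when wild-type replicate 1 or mutant replicate 2 was left out) and Ebf1 (-0.0021 with the file code, -0.01 without wild-type replicate 3, range -0.01 to 0.16). Tfap2a reversed to -0.03 without wild-type replicate 2 and -0.05 without mutant replicate 3. The cause was not tested. Other scalings and filters (RLE, library size only, no filter, a stricter filter) turned no member's sign. Depth limits Ptf1a, Lmx1a and Sst.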

Other observations

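Relative to Gabra6, a receptor subunit of mature granule neurons, the brush cell genes differed from each other. The ratio of Calb2 to Gabra6 was 0.559, 0.645 and 0.525 in wild type against 0.720, 0.705 and 0.658 in the mutants, a 1.37-fold span over libraries in which Calb2 itself spanned 3.78-fold. For Eomes the ratio was 0.187, 0.230 and 0.302 in wild type against 0.561, 0.590 and 0.621 in the mutants. Gabra6 itself was at 43.1, 87.6 and 41.6 CPM in wild type against 20.8, 36.4 and 28.7 CPM in the mutants, with groups apart, so the ratios carry its own difference. It was picked as the reference after the values were seen, and such a ratio shows unequal change, not which of its 2 genes differed.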
